A study of Homo sapiens with 16 samples.

Results

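The genes for the subunits of RNA polymerase I, II and III were taken as the protein-coding genes whose names begin with POLR1, POLR2 or POLR3 followed by a letter. There were 33 such genes among the 20155 protein-coding genes of chromosomes 1 to 22, X and Y in GENCODE 44 placed on GRCh37 (hg19). By name, 8 belonged to Pol I, 15 to Pol II and 10 to Pol III. Several are shared between the enzymes: POLR1C and POLR1D also sit in Pol III, and POLR2E, POLR2F, POLR2H, POLR2K and POLR2L sit in all 3 polymerases. Each gene was counted once, under its name.

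RNA polymerase I makes the precursor of the large ribosomal RNAs, Pol II makes messenger RNAs and many small nuclear RNAs, and Pol III makes transfer RNAs, 5S ribosomal RNA and other short RNAs. Each enzyme is a large assembly, and the messenger RNAs for all of its protein subunits are made by Pol II from ordinary promoters. Many Pol III genes carry their promoter inside the transcribed stretch, as a pair of short elements, the A box and the B box, which the factor TFIIIC binds.

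The data were lists of ChIP-Seq peaks, the places where immunoprecipitated DNA fragments pile up above background, in HEK293T cells, a human embryonic kidney line. There was 1 list for wild-type cells, 1 for cells without POLK (POLK-/-), which lack the DNA polymerase Pol κ, and 1 for cells without DDX23 (DDX23-/-), which lack a DEAD-box helicase of the spliceosome. No treatment was given, and the labels name no tag for these 3 genotypes, although their protocol uses anti-FLAG beads while their antibody label reads Polk. The labels list 2 pulldown and 2 control libraries per genotype, and which pulldown library each list came from is uncertain for the wild-type and DDX23-/- lists. The POLK-/- list holds peaks at subunit genes although its cells have no Pol κ by their label, so what protein the peaks report was not tested. With 1 list per genotype there was no replicate check, and no difference between genotypes was tested.

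The lists differed in size and depth, which bears on every count below. They held 1461, 2449 and 5941 peaks on these chromosomes in wild-type, POLK-/- and DDX23-/- cells. Against a depth of 1 for wild-type cells, the peak statistics gave relative depths of 2.36 for POLK-/- and 3.94 for DDX23-/- cells. The weakest peak rested on 6, 10 and 14 fragments, respectively. Genotype, depth and list size cannot be told apart here.

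The sequences below show the promoters of the members with the highest enrichment of each polymerase in the DDX23-/- list. Enrichment here is the number of fragments at the summit of a peak over the local background of the peak caller. Fragments were first multiplied by the caller's scale, which was 1, 0.736 and 0.660 for the wild-type, POLK-/- and DDX23-/- libraries. Each runs 5′ to 3′ in the direction of the gene, from 150 bases before the start to 30 bases from it, and the capitals mark the letters GGGCGG (GC box) or CCGGAAGT (ETS site) on either strand. The windows lie on the plus strand of GRCh37 at chr2:113299342-113299521 for POLR1B, chr16:57496422-57496601 for POLR2C and chr16:22308546-22308725 for POLR3E.
POLR1B: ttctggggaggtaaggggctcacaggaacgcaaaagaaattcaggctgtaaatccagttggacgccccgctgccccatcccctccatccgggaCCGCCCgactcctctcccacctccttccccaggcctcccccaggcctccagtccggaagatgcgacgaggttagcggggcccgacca
POLR2C: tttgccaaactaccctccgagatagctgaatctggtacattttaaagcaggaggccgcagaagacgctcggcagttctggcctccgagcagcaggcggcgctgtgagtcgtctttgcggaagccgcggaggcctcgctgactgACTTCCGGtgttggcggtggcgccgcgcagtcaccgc
POLR3E: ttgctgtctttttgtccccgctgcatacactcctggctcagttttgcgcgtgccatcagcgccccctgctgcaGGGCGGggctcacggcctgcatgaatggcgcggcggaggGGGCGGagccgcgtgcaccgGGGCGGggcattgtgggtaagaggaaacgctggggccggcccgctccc
The DDX23-/- summits of POLR1B, 36 bases before its start, and POLR2C, 6 bases past it, lie within these windows. That of POLR3E, 233 bases before its start, lies outside its window, as do its summits in the other lists. POLR1B had 1 GC box, beginning 57 bases before its start, and POLR3E had 3. The ETS letters of POLR2C ended at the start itself. None of the printed windows held the 6 other motifs searched, which are given further on.

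The strongest peak at any subunit gene was at POLR3E, which encodes the RPC5 subunit of Pol III. It covered a site with the letters of a tRNA gene promoter, 228 to 166 bases upstream of the POLR3E start on the same strand. A second such site lay on the other strand within the first intron, 1185 to 1238 bases downstream of the start. Both are shown from the first base of the A box to the last base of the B box, at chr16:22308468-22308530 on the plus strand and chr16:22309881-22309934 on the minus strand of GRCh37, with the boxes in capitals.
POLR3E upstream site: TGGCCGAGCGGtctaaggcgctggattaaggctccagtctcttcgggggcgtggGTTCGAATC
POLR3E intron site: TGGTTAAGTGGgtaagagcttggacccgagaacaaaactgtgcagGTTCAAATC
The upstream sequence of 63 bases occurs 4 times in the genome, so reads within it can come from another copy, while the intron sequence of 54 bases occurs once. RefSeq places a leucine tRNA gene, TRL-AAG2-4, beside POLR3E, and POLR3E was the only 1 of the 33 members with a tRNA gene within 20 kb there. As background, the first intron of POLR3E is known to hold a short interspersed element that Pol III reads in the antisense direction.

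In the wild-type list the POLR3E summit lay 213 bases before the start, with 107 fragments and an enrichment of 88.25 (95% counting interval 72.3 to 106.6). In the POLK-/- list it lay at the same base, with 278 fragments and an enrichment of 102.3 (90.7 to 115.1). In the DDX23-/- list it lay 233 bases before the start, with 302 fragments and an enrichment of 66.4 (59.1 to 74.3). The wild-type and POLK-/- summits fell inside the upstream site, and the DDX23-/- summit fell just before it. These intervals, like all others here, cover counting error at the summit only and leave out the error of the background.

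The intron peak of POLR3E was listed in the POLK-/- and DDX23-/- cells and not in the wild-type cells. Its summit lay 1127 bases downstream of the start in the POLK-/- list, with 35 fragments and an enrichment of 17.0 (11.8 to 23.6). It lay 1157 bases downstream in the DDX23-/- list, with 41 fragments and an enrichment of 13.5 (9.70 to 18.3). Both peaks covered the intron site, at 1185 to 1238 bases downstream, but both summits lay outside it, nearer to the POLR3E start. Both peaks were weaker than the upstream peak of the same list.

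**Figure D1:**
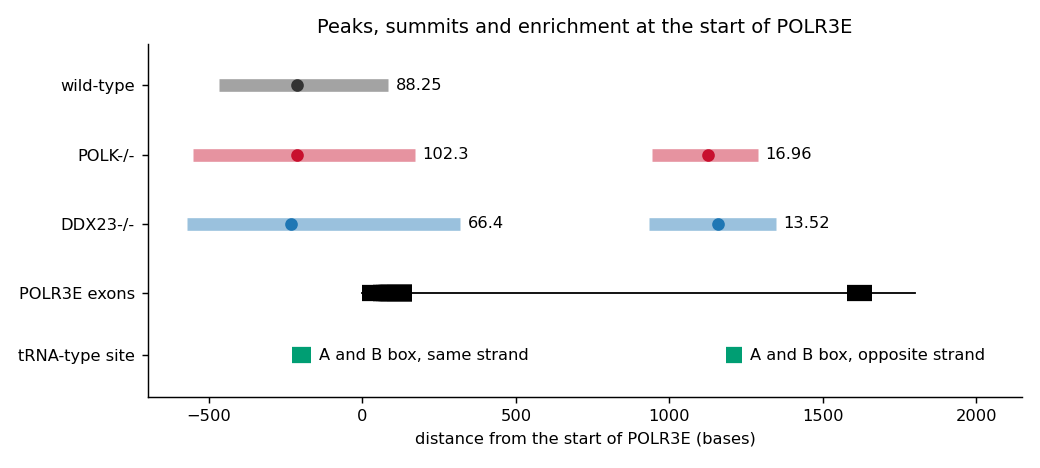
Peaks near the start of POLR3E in the 3 lists. Bars span each peak, dots mark summits, numbers give enrichment over local background, and the x axis is the distance from the POLR3E start in bases; the upstream peak covers the same-strand A and B box site in all 3 lists, and the intron peak covers the opposite-strand site in the POLK-/- and DDX23-/- lists.

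Among the other subunit genes no peak held both boxes 24 to 110 bases apart. The members had 7, 12 and 23 peaks in wild-type, POLK-/- and DDX23-/- cells, and 1, 2 and 2 of these held such a site, all at POLR3E. Over all peaks, 17.2%, 10.7% and 4.97% held one. No peak at a member overlapped a small RNA gene of the GENCODE annotation, which holds no nuclear tRNA genes, against 3.42%, 2.37% and 1.33% of all peaks.

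Start peaks with a tRNA-type site also had the higher median enrichment among protein-coding genes at large. Of the 1131 starts with a peak in the wild-type list, 43 held such a site, with a median enrichment of 42.7 against 14.9 for the rest. In the POLK-/- list the medians were 68.8 for 48 starts and 10.5 for the rest, and in the DDX23-/- list 50.1 for 61 starts and 10.9 for the rest. POLR3E was 9th, 12th and 35th from the top of all starts with a peak in wild-type, POLK-/- and DDX23-/- cells. Of the starts above it, 2, 0 and 16, in the same order, held no tRNA-type site. The next strongest member peaks reached 21.4, 25.6 and 40.3.

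A peak was called at the start when any base of it lay within 1 kb of the 5′ end of the gene. In wild-type cells 7 of 33 subunit genes (21.2%) had one, against 5.61% of all protein-coding genes. In POLK-/- cells 10 had one (30.3%), against 10.1% of all genes. In DDX23-/- cells 18 had one (54.5%), against 24.9%. Counting peaks anywhere inside the gene as well gave 7 members (21.2%) against 7.01% of all genes in wild-type, 11 (33.3%) against 12.2% in POLK-/- and 20 (60.6%) against 29.6% in DDX23-/- cells. The members are shorter than genes at large, with a median length of 17750 bp against 27219 bp.

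A share above that of all protein-coding genes was also seen in other gene sets for large assemblies that every cell uses. In the DDX23-/- list 46 of 89 cytosolic ribosomal protein genes (51.7%) and 40 of 78 mitochondrial ribosomal protein genes (51.3%) had a start peak. In the POLK-/- list the shares were 24.7% and 24.4%, and in the wild-type list they were 7.87% and 12.8%. The subunit genes lay above both sets in each list, and these differences were not tested.

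Genes for transcription factors of the polymerases, most of them initiation factors, were counted in the same way. The set includes TTF1 and MAF1, which do not bring a polymerase to a promoter. Of 41 factor genes, 2 had a start peak in wild-type (4.88%), 7 in POLK-/- (17.1%) and 18 in DDX23-/- cells (43.9%). The shares over all protein-coding genes were 5.61%, 10.1% and 24.9%, so that of the factors was lower in the wild-type list and higher in the others. By enzyme, the DDX23-/- counts were 4 of 7 for Pol I factors such as UBTF and RRN3, 7 of 18 for Pol II factors such as TBP and GTF2B, and 7 of 16 for Pol III factors such as BRF1 and the TFIIIC subunits. In the POLK-/- list they were 1, 4 and 2, and in the wild-type list 0, 1 and 1. Each of the 3 shares over all factors was below that of the subunit genes, a difference that was not tested.

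By polymerase the shares were near each other for sets of this size. In the wild-type list a start peak was present at 2 of 8 Pol I genes (25%), 3 of 15 Pol II genes (20%) and 2 of 10 Pol III genes (20%). These 2 Pol III genes were POLR3E and POLR3K, with summits 213 and 374 bases upstream of their starts. In the POLK-/- list the counts were 2, 5 and 3 (25%, 33.3% and 30%). In the DDX23-/- list they were 5, 8 and 5 (62.5%, 53.3% and 50%). With so few genes per enzyme, no order was read from these counts.

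**Figure D2:**
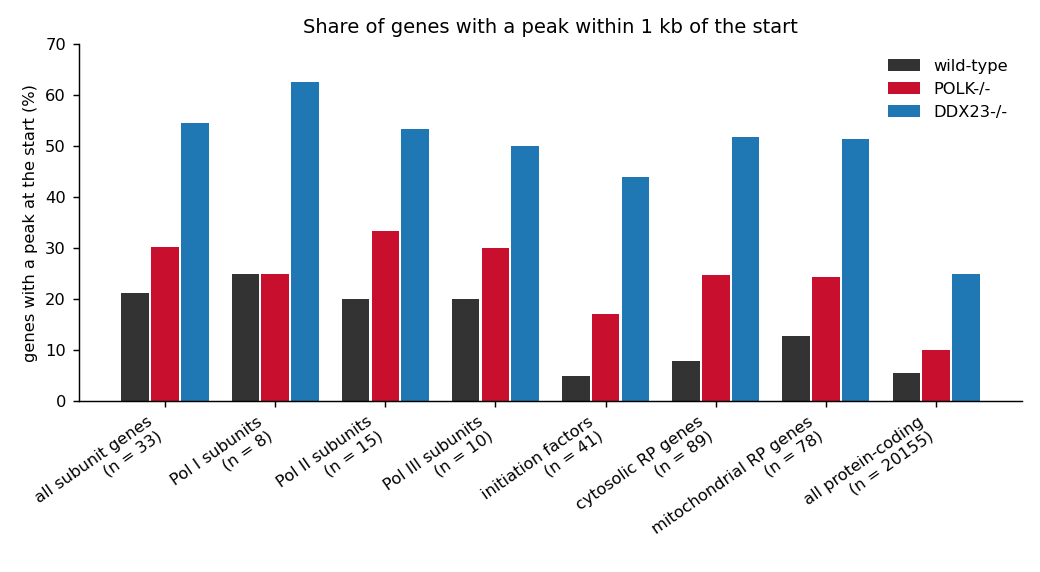
Percent of genes with a peak within 1 kb of the start, by gene set and list, with the number of genes in parentheses. The set labelled initiation factors also includes TTF1 and MAF1, which are not initiation factors. RNA polymerase subunit genes reach 21.2%, 30.3% and 54.5% in wild-type, POLK-/- and DDX23-/- cells, against 5.61%, 10.1% and 24.9% of all protein-coding genes, and ribosomal protein genes reach 51.7% and 51.3% in the DDX23-/- list.

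Counted from the starts of the gene records, the lists were nested over the members. The 7 genes with a wild-type start peak, POLR1B, POLR1G, POLR2E, POLR2J, POLR2J3, POLR3E and POLR3K, had one in all 3 lists. A further 3, POLR2A, POLR2C and POLR3GL, had one in the POLK-/- and DDX23-/- lists. The remaining 8 of the 18, POLR1A, POLR1E, POLR1F, POLR2G, POLR2I, POLR2K, POLR3A and POLR3C, had one in the DDX23-/- list only. No member lost its wild-type peak in either knockout list. Most protein-coding genes kept theirs as well. Of 1131 genes with a wild-type start peak, 1102 also had one in DDX23-/- cells and 867 in POLK-/- cells. With only 7 members, full retention does not set them apart from genes at large. Of the members with any start peak, 38.9% had one in all 3 lists, against 16.9% of all genes with any start peak. For the DDX23-/- list only the shares were 44.4% against 55.3%, and for POLK-/- with DDX23-/- they were 16.7% against 21%. Patterns outside this nesting were rare among all such genes, at 4.64% for wild-type with DDX23-/- and 1.58% or less for each other pattern. The nesting therefore does not set the members apart from genes at large. Counted from any transcript start, POLR1H would have a peak in the POLK-/- list only, outside the nesting.

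The order of the lists changed when each was cut to the same number of peaks. With the 1468 peaks of smallest p from each list, the members with a start peak were 7 in wild-type, 10 in POLK-/- and 9 in DDX23-/- cells, against 5.61%, 5.79% and 5.72% of all genes. All 8 genes found in the DDX23-/- list only, and POLR3GL in that list, were below this limit. By enzyme, the DDX23-/- counts were then 2 for Pol I, 5 for Pol II and 2 for Pol III.

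Pol I subunits with a peak in every list were POLR1B, the second largest subunit, and POLR1G, which pairs with POLR1E on the enzyme's lobe. POLR1B rested on 12, 42 and 79 fragments and had an enrichment of 14.5 (7.48 to 25.3) in wild-type, 18.3 (13.2 to 24.8) in POLK-/- and 40.3 (31.9 to 50.2) in DDX23-/- cells. Its summits lay within 36 bases of the start in each list. POLR1G had 15.7 (8.35 to 26.8), 9.20 (5.96 to 13.6) and 13.7 (10.3 to 18.0), with 13, 25 and 53 fragments and overlapping intervals. The DDX23-/- value of POLR1B was above both other intervals, and that of POLR1G was not.

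The other Pol I start peaks were in the DDX23-/- list only. POLR1A, the largest subunit, had an enrichment of 7.26 (5.00 to 10.2), and its summit, 78 bases upstream, was 10 bases from the start of PTCD3 on the other strand. POLR1E had 6.73 (4.11 to 10.4), with its summit 264 bases upstream. POLR1F, a stalk subunit, had 8.14 (5.73 to 11.2), with its summit 7 bases past the start. All were below the median of 10.9 over all protein-coding starts with a peak in that list.

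Of the Pol II subunits, POLR2E, which all the polymerases share, had a peak in every list. Its enrichment was 6.60 (3.77 to 10.7) in wild-type with 16 fragments, 11.1 (8.28 to 14.6) in POLK-/- with 51, and 24.04 (18.7 to 30.4) in DDX23-/- cells with 70. The DDX23-/- interval lay above both others, while the local background was 2.43, 3.38 and 1.92. Over the genome-wide background of each list the enrichment of POLR2E was 27.9, 40.8 and 36.0.

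POLR2J, an assembly partner of POLR2C, had enrichments of 21.4 (11.4 to 36.7), 25.6 (17.5 to 36.2) and 23.2 (16.9 to 31.0) in wild-type, POLK-/- and DDX23-/- cells. Its relative POLR2J3 had 20.5 (11.9 to 32.8), 15.0 (11.5 to 19.2) and 19.1 (15.3 to 23.6). The 3 intervals of each gene overlapped. POLR2J, POLR2J2 and POLR2J3 are near copies, with 97.5% to 98.2% identity over 500 bases on either side of their starts, so reads may be shared between them and their values are uncertain. POLR2J2 had no peak in any list.

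POLR2A, the catalytic largest subunit, and POLR2C, its RPB3 subunit, had start peaks in both knockout lists and none in wild-type. POLR2A had 6.18 (4.46 to 8.36) in POLK-/- with 42 fragments and 22.8 (17.7 to 28.8) in DDX23-/- with 69 fragments. Its background was 5 in the first list and 2 in the second. POLR2C had 7.36 (4.97 to 10.5) and 25.4 (19.9 to 32.1), over backgrounds of 3 and 1.84. The summits of these peaks lay within 41 bases of each start. POLR2A had a second, weaker start peak in the DDX23-/- list, 454 bases upstream, with an enrichment of 6.73 (3.99 to 10.6). The summit of that peak was nearer to the start of ZBTB4 on the other strand, at 351 bases.

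The Pol II members in the DDX23-/- list only were POLR2G, POLR2I and POLR2K. POLR2G, a stalk subunit, had an enrichment of 9.22 (5.84 to 13.8), with its summit 198 bases upstream. POLR2I had peaks on both sides of its start, at 281 bases upstream with 12.9 (9.14 to 17.7) and at 272 bases downstream with 11.2 (7.67 to 15.8). POLR2K had 10.6 (6.63 to 16.0), with its summit 66 bases upstream. These values lie around the median of 10.9 for all starts in that list.

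Of the Pol III subunits other than POLR3E, POLR3K, a small subunit involved in termination, had a peak in every list. Its enrichment was 16.5 (9.45 to 26.9), 14.4 (9.91 to 20.2) and 35.5 (28.7 to 43.4), with 16, 33 and 95 fragments. Its summits lay 374, 408 and 380 bases upstream of POLR3K and were nearer to the start of SNRNP25, a U11/U12 spliceosomal protein gene on the other strand. The peak therefore counts for POLR3K by the rule of 1 kb only.

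POLR3GL, a subunit of the initiation trimer, had 9.57 (6.25 to 14.02) in the POLK-/- and 10.99 (8.16 to 14.5) in the DDX23-/- list, with summits 38 and 13 bases upstream. POLR3A, the largest subunit, had 12.02 (7.78 to 17.7) in the DDX23-/- list, with its summit 38 bases past the start. POLR3C, another trimer subunit, had 3.79 (2.40 to 5.69), the lowest of any member, over a local background of 4. Its summit lay between its own start and that of RNF115 on the other strand.

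**Figure D3:**
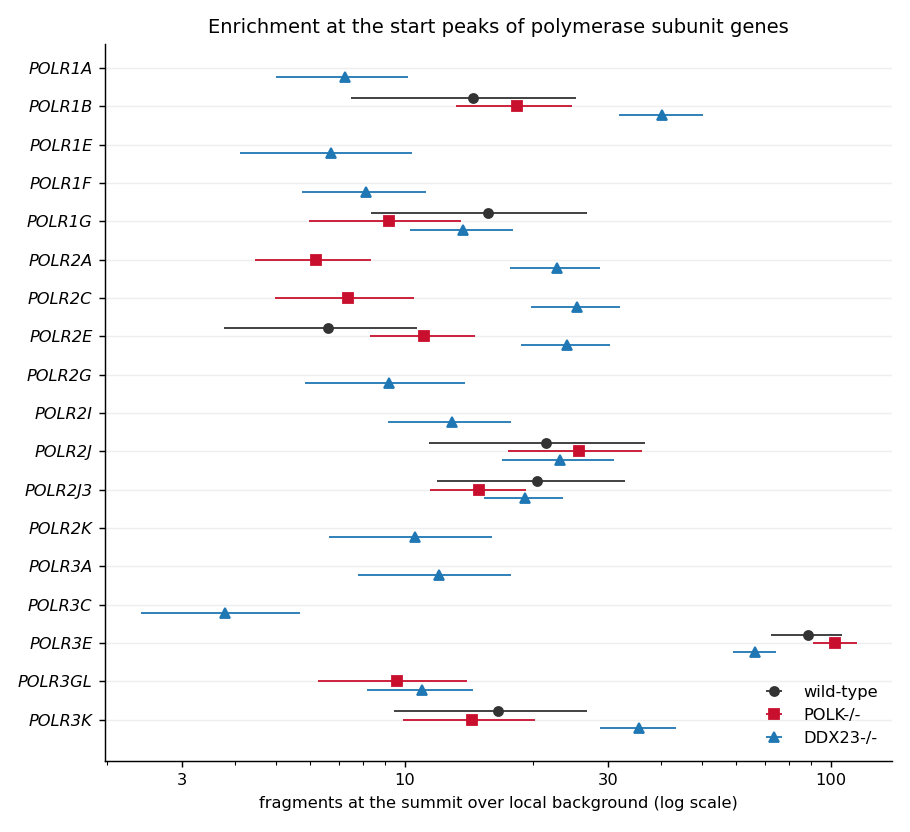
Enrichment at the strongest start peak of each of the 18 subunit genes with one, by list, as fragments at the summit over local background on a log axis, with 95% counting intervals. POLR3E sits between 66.4 and 102.3, above every other member, and POLR3C is lowest at 3.79.

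Peaks inside a subunit gene and away from its start were few. In the DDX23-/- list POLR3G, the paralog of POLR3GL in the initiation trimer, had an intron peak 3095 bases downstream with an enrichment of 18.5 (13.9 to 24.1), whose summit was 72 bases from the start of MBLAC2. POLR1C, shared by Pol I and Pol III, had a peak 7373 bases downstream with 8.69 (5.91 to 12.3), 90 bases from the start of YIPF3. In the POLK-/- list POLR1H, a small Pol I subunit, had a peak 2244 bases downstream with 8.47 (4.94 to 13.6). The summits in POLR3G and POLR1C were thus within 100 bases of the start of another gene. Counted from the start of any transcript, 11 members in POLK-/- and 20 in DDX23-/- cells had a start peak. The POLR1H, POLR1C and POLR3G peaks therefore also lay within 1 kb of an annotated transcript start of their own gene. The members with no peak in any list included POLR1D, POLR2B, POLR2D, POLR2F, POLR2H, POLR2J2, POLR2L, POLR2M, POLR3B, POLR3D and POLR3F, and among these are the second largest subunits of Pol II and Pol III.

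Over the members with a start peak the median enrichment was 16.5 in wild-type, 12.8 in POLK-/- and 13.3 in DDX23-/- cells, against 15.3, 10.7 and 10.9 over all starts with a peak. The deposited fold, which adds 1 to both terms, had medians of 8.64, 9.11 and 9.50, against 7.23, 6.95 and 7.38. Without POLR3E the member medians of enrichment were 16.1, 11.1 and 12.9.

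The summits of most members lay near the start. They were within 100 bases at 4 of 7 members in wild-type (57.1%), 8 of 10 in POLK-/- (80%) and 12 of 18 in DDX23-/- cells (66.7%), against 46.7%, 45.7% and 46.5% of all starts with a peak. Mitochondrial ribosomal protein genes had like shares, at 60%, 73.7% and 70%, so this is not particular to the members. Cytosolic ribosomal protein genes had 57.1%, 54.5% and 45.7%. The median position was 6, 2 and -13 bases relative to the start, where positive is downstream, and measured from the nearest transcript start it was -4, -1.5 and -13 bases. The members with summits more than 100 bases away in the DDX23-/- list were POLR1E, POLR2G, POLR2I, POLR2J3, POLR3E and POLR3K. POLR2J3 has 2 gene records, and positions were taken from the longer one. Its DDX23-/- summit lay 102 bases from that start and 32 bases from the other.

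The same place was marked in each list. At members with a start peak in 2 lists the peaks overlapped in every case, in 7 of 7 between POLK-/- and wild-type, 7 of 7 between DDX23-/- and wild-type and 10 of 10 between DDX23-/- and POLK-/- cells, as did 98.5%, 98.5% and 98.6% of all such starts. The median gap between summits was 11, 35 and 26.5 bases, against 36, 36 and 31 bases for all.

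**Figure D4:**
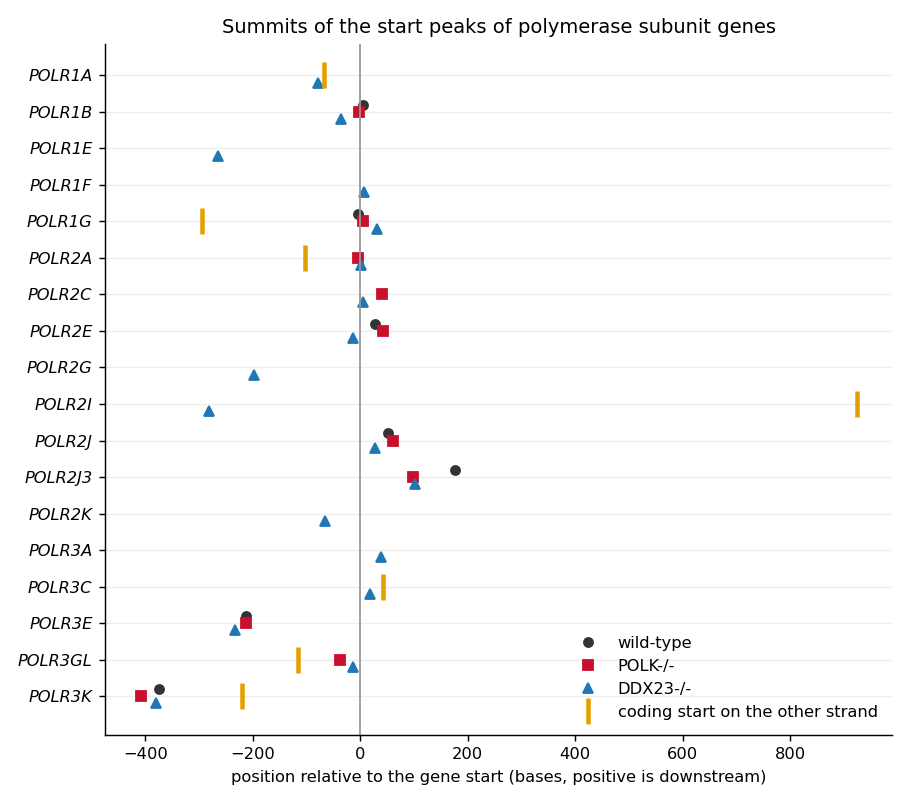
Position of the summit of the strongest start peak of each of the 18 subunit genes, in bases from the gene start, with the starts of protein-coding genes on the other strand as vertical marks. Most summits sit within 100 bases of the start, while those of POLR3K sit 374 to 408 bases upstream, beyond the start of SNRNP25.

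Neighbouring starts were frequent among these genes. The start of a protein-coding gene on the other strand lay within 1 kb for 13 of 33 members (39.4%), against 13.3% of all genes. Among all genes such a neighbour went with more start peaks, 51.4% against 20.8% in the DDX23-/- list. The shares were 21.9% against 8.24% in the POLK-/- list and 12.4% against 4.58% in the wild-type list. Among the members it did not in these counts, with 7 of 13 (53.8%) against 11 of 20 (55%) in the DDX23-/- list. The corresponding counts were 4 of 13 (30.8%) and 6 of 20 (30%) in POLK-/- and 2 of 13 (15.4%) and 5 of 20 (25%) in wild-type cells. When a start peak counted only if its summit was nearest to the gene's own start among protein-coding starts, 6 members had one in wild-type against 4.57% of all genes, 9 in POLK-/- against 8.2%, and 16 in DDX23-/- cells against 20.6%. The genes left out were POLR3K in every list and POLR1A in the DDX23-/- list.

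The ratio of enrichment between lists was taken at starts with a peak in both, and values beyond 1.5 in either direction were counted. For POLK-/- over wild-type cells the median over 7 members was 1.16, against 0.857 over 867 starts. POLR2E was past 1.5 upward, as were 16.8% of all starts, and POLR1G was past it downward, as were 32.2%. All 7 intervals held 1. The comparisons of the 2 knockouts with wild-type share the wild-type list and are given side by side only.

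For DDX23-/- over wild-type cells the member median was 1.08, against 1.15 over 1102 starts. The ratio was 3.64 (2.10 to 6.72) at POLR2E, 2.78 (1.51 to 5.62) at POLR1B and 2.15 (1.26 to 3.91) at POLR3K. These 3 of 7 were past 1.5 upward, as were 33.8% of all starts, and none was past it downward, against 15.8%. POLR3E had 0.752 (0.602 to 0.947), so its interval lay below 1.

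For DDX23-/- over POLK-/- cells the member median was 1.83 over 10 genes, against 1.44 over 1943 starts. POLR2A had 3.68 (2.47 to 5.54), POLR2C 3.45 (2.22 to 5.48), POLR3K 2.47 (1.65 to 3.79), POLR1B 2.20 (1.49 to 3.28) and POLR2E 2.16 (1.49 to 3.16). These 5 were past 1.5 upward, as were 47.2% of all starts. POLR3E had 0.649 (0.550 to 0.767) and was the 1 member past it downward, against 9.93% of all starts.

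Several of these ratios depended on which background was used. The median over all starts stood at -0.22, 0.20 and 0.52 on the log2 scale for the 3 comparisons, in the order given, and relative to it POLR2A was at 2.56 (1.72 to 3.86) in DDX23-/- over POLK-/- cells. With the genome-wide background of each list in place of the local one, its ratio there was 1.06, and that of POLR2C was 1.52. POLR2E was at 1.29 in DDX23-/- over wild-type and turned to 0.883 in DDX23-/- over POLK-/- cells. POLR1B was at 1.94 and POLR3K at 1.75 in DDX23-/- over wild-type cells, but POLR1B was at 1.21 in DDX23-/- over POLK-/- cells and no longer past 1.5.

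For POLK-/- over wild-type cells both calls ended with that background, with POLR2E at 1.46 and POLR1G at 0.882, while POLR1B at 1.61 and POLR2J3 at 1.65 were past 1.5 instead. POLR2J3 thus turned from 0.730, and it also turned from 0.933 to 1.51 in DDX23-/- over wild-type and from 1.28 to 0.917 in DDX23-/- over POLK-/- cells. POLR1G turned from 0.875 to 1.202 in DDX23-/- over wild-type cells. POLR3E was below 1 with either background, at 0.832 over wild-type and 0.699 over POLK-/- cells, where it was no longer past 1.5 downward. The ratio of its deposited folds was 1.03 over wild-type and 0.730 over POLK-/- cells, so its direction against wild-type cells depended on the measure. The member medians were 1.19, 1.29 and 1.13 with that background, against 1.12, 1.27 and 1.15 over all starts.

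**Figure D5:**
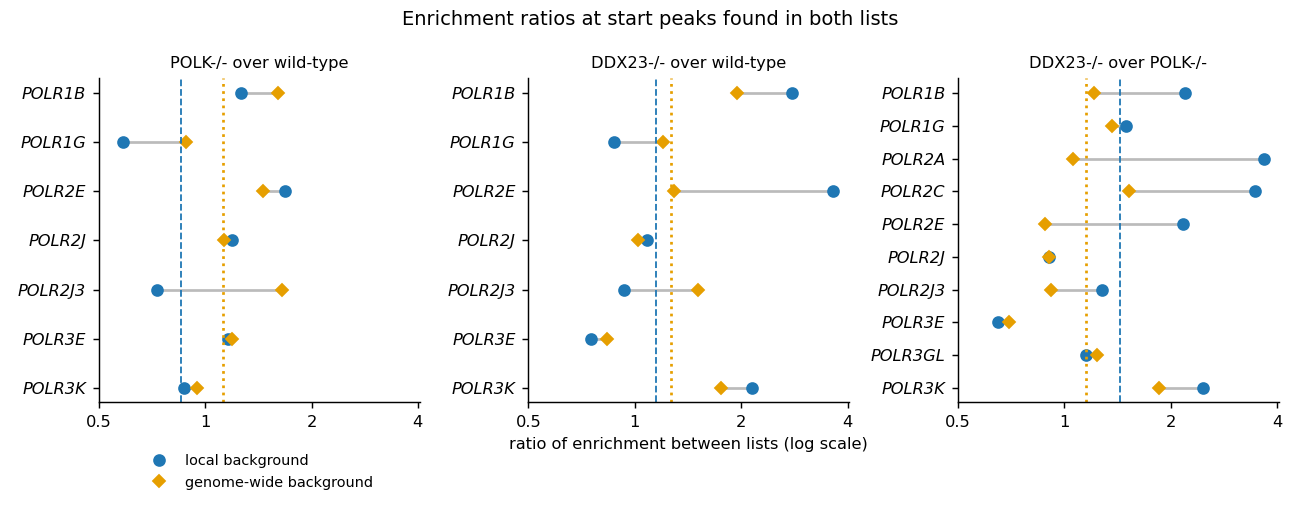
Ratio of enrichment between lists at subunit genes with a start peak in both, on a log axis, with the local background (circles) and the genome-wide background (diamonds), and the medians over all protein-coding starts as dashed and dotted lines. POLR2A falls from 3.68 to 1.06 in DDX23-/- over POLK-/- cells when the background is changed, and POLR3E stays below 1 with both backgrounds in both comparisons with DDX23-/- cells.

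GC boxes were the most frequent of the 8 motifs searched. The window from 250 bases before to 50 bases after the start held GGGCGG on either strand in 25 of 33 members (75.8%), against 52.1% of all protein-coding genes. Among genes with a start peak in any list, 13 of 18 members held it, against 69.5% of all such genes. CCAAT was in 9 (27.3%, against 35.8%), and TATAAA was in POLR1H and POLR2M (6.06%, against 10.9%). The NRF1 letters GCATGCGC were in 4 (12.1%, against 3.76%), of which 3 were the near copies POLR2J, POLR2J2 and POLR2J3 and the other was POLR2I. CCGGAAGT was in POLR2C, POLR2K and POLR3A (9.09%, against 5.06%). All had a start peak in the DDX23-/- list, and of the 1020 genes with these letters 508 had a start peak in at least 1 list. CACGTG was in 4 (12.1%, against 8.32%), AAGATGGC was in POLR1A and POLR3D (6.06%, against 3.02%), and TGACGTCA was in none, against 2.28%. In a window from 500 bases before to 100 bases after the start the member counts were 5 for TATAAA, 17 for CCAAT and 5 for CCGGAAGT, or 15.2%, 51.5% and 15.2%, against 21.5%, 53.3% and 5.83% of all genes. The median GC content of the shorter window was 62.7% for members with a start peak in any list and 61.7% for those without, against 64.3% and 58.3% for all genes. In the wider window the order of the members was reversed, with 57.33% and 61.5%, against 60.17% and 55.33% for all genes.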

How the data were processed

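The 3 peak lists came from ChIP-Seq libraries of HEK293T cells sequenced on a HiSeq4000, and genotypes were taken from the labels. The submitters' processing notes name Bowtie2, MACS2, bedtools, deepTools and hg19 without versions; the threshold, control and any pooling are not given in the sources used here. The authors deposited for each peak a fold, which is a ratio of pileups after adding 1 to each, the −log10 of p and of q, a score and the summit position. No column of per-library reads was used.

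Fragments at each summit and the background were solved from the deposited fold and p by the MACS2 formulas, with a scale per list; every peak of the lists (1468, 2451 and 5945) was matched within 0.2% of its −log10 p. The depth of each list is known only through these fragments, and intervals are exact (Poisson for an enrichment, conditional binomial for a ratio). Of several start peaks the one of smallest p was used. Chromosome names were those of GRCh37, and every peak on chromosomes 1 to 22, X and Y lay within its sequences. Python 3.11.15, scipy 1.17.1, pandas 2.3.3 and pysam 0.24.0 were used, and the depth recovery and peak assignment were tested on simulated data. No test was run, since each genotype had 1 list.

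The members, gene lists and motifs were chosen with earlier results of these data known, and the A and B box letters (B box GTTCNANNC) after the POLR3E sequence had been seen. All members entered the counts, and 1 of them is not reported here by name; values were given for those with a peak, and sequences for the strongest member of each polymerase in the DDX23-/- list. A sequence for the peak inside POLR3G is not shown, since it lies over the UTR of MBLAC2. Promoter and site sequences were read from GRCh37; RefSeq gene order was used for tRNA genes only, and all 33 members matched.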

Additional observations from a re-analysis of the deposited data

How the results depend on the processing

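Of 137 alternative values for 32 counts and medians, 127 stayed within 1.5 times a count, or within the 95% interval of a median, which is wide over so few genes, and 10 did not. The median summit position, a few bases from the start, changed sign to -4 in wild-type and -1.5 in POLK-/- cells from the nearest transcript start, and to -7 in wild-type cells with the peak midpoint. When all lists were cut to 1468 peaks, the DDX23-/- counts were 9 members with a start peak and 10 with one at the start or inside, and 2, 5 and 2 start peaks for Pol I, II and III. The wider window moved the counts of the TATA, CCAAT and ETS letters to 5, 17 and 5. With the genome-wide background, chosen after seeing the data, the median member enrichment was 30.0 in POLK-/- and 24.4 in DDX23-/- cells. The other alternatives were a distance of 500 bases or 5 kb, a q of at most 1e-05, the summit or midpoint of the peak, other transcript starts, the deposited fold, other rules for a shared peak, a wider motif window and, added after seeing the data, the summit nearest to the member. No paired analysis was possible because each genotype had 1 list, and for the same reason no replicate could be left out. Local backgrounds of at most 5 fragments limit each enrichment, and a gene without a peak in the shallower lists cannot be called unbound.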
